A study of Homo sapiens with 16 samples.

Results

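The BCL2 family decides at the mitochondrial outer membrane whether a cell enters apoptosis, and its mRNAs were followed here in T47D breast cancer cells with or without FAH and with or without abemaciclib. The members were fixed by name and not by a cut on their values, though with earlier results of these data known. They were the anti-apoptotic genes BCL2, BCL2L1 and MCL1, the pore-forming genes BAX and BAK1, and the BH3-only genes BID, BIK, BBC3, PMAIP1 and BCL2L11. These 10 are 10 of the 78986 rows of the deposited table, and each was found once by its symbol. All 10 were among the 16218 genes tested, and each held more than 1 CPM (reads of a gene per 1000000 reads assigned to genes) in all 16 libraries, so none entered through its high group alone.

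T47D cells are a widely used luminal, estrogen receptor positive line from human breast cancer. All cells carried a guide, either a control guide or one that knocked out FAH, which completes the breakdown of tyrosine, and were cultured with vehicle (DMSO in the titles) or with 500 nM abemaciclib, a drug that blocks CDK4 and CDK6 and so entry into S phase, for 3 days. The 4 groups were control vehicle, control abemaciclib, knockout vehicle and knockout abemaciclib, with 4 libraries each. The sources used here do not say whether knockout cells were clonal, nor that replicates were separate cultures. The p-values therefore reflect the spread of these libraries alone, which may be technical.

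In the textbook account, BCL2, BCL-XL (the main product of BCL2L1) and MCL1 hold BAX and BAK in check. BAX and BAK, once active, form pores in the outer membrane and release cytochrome c. The BH3-only proteins report stress. BIM (from BCL2L11), BID and PUMA (from BBC3) bind all the guardians and can engage BAX and BAK, NOXA (from PMAIP1) binds mainly MCL1, and BIK sits largely at the endoplasmic reticulum. Much of the control of this family lies in protein turnover, cleavage and location, which mRNA does not show.

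Assigned reads numbered 9915776 to 11963093 per library, so 1 CPM stands for 9.92 to 11.96 reads. FAH held 25.1 to 28.2 CPM in control vehicle and 6.27 to 7.02 CPM in knockout vehicle libraries, and 22.6 to 25.8 against 5.03 to 6.79 CPM under abemaciclib, with no overlap (exact two-sided permutation p = 0.0286 within each treatment, the smallest that 4 against 4 allows). All 10 luminal markers were present, with a summed level of 11292 to 11488 CPM in control vehicle, 13365 to 14029 in control abemaciclib, 14786 to 15197 in knockout vehicle and 17709 to 18086 CPM in knockout abemaciclib libraries. The basal keratins KRT5 and KRT14 did not exceed 0.0997 CPM, only 1 of 5 basal markers, ACTA2, had a mean of at least 1 CPM, and their sum was 23.2 to 38.4 CPM. Of 6 leukocyte markers 2 reached that mean, and their sum was 3.89 to 6.55 CPM. Of 6 mesenchymal markers 4 did, with a sum of 76.2 to 102 CPM. The part of these levels in the results was not tested. CPM are shares of a library, and in bulk RNA fewer cells of a kind and less RNA per cell cannot be told apart.

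With abemaciclib BCL2L1, MCL1 and BID rose and BAX, PMAIP1 and BCL2L11 fell, in both genotypes. For BCL2L11 in knockout cells the call was lost in 7 alternative settings of the processing. In control cells 3 of the 10 members rose and 4 fell (limma, adjusted p under 0.05 over all tested genes), where 50.7% of all tested genes were called, 19.6% higher and 31.1% lower. The groups did not overlap for 6 members there, as for 42.8% of all genes. In knockout cells 3 rose and 3 fell, where 38.4% of all genes were called, 11% higher and 27.4% lower, and again 6 members did not overlap, as for 35.9% of all genes. Loss of FAH under vehicle came with 5 members higher and 1 lower, against 37.7% of all genes called, 24.6% higher and 13.1% lower, with 6 members without overlap, as for 35% of all genes. Under abemaciclib the knockout had 4 members higher and 1 lower, against 29.9% of all genes, 18.6% higher and 11.3% lower, and 2 members, BAX and BAK1, did not overlap, as for 26.6% of all genes. Comparisons that share a group of libraries, such as both comparisons with control vehicle, are not independent of each other. Median-of-ratios rescaling of the libraries moved the share of higher genes among all called ones from 65.3% to 48.6% for the knockout under vehicle and from 62.2% to 47.8% under abemaciclib. For the drug it moved from 38.7% to 51.1% in control and from 28.6% to 53.1% in knockout cells, so small changes depend on the scale.

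**Figure D1:**
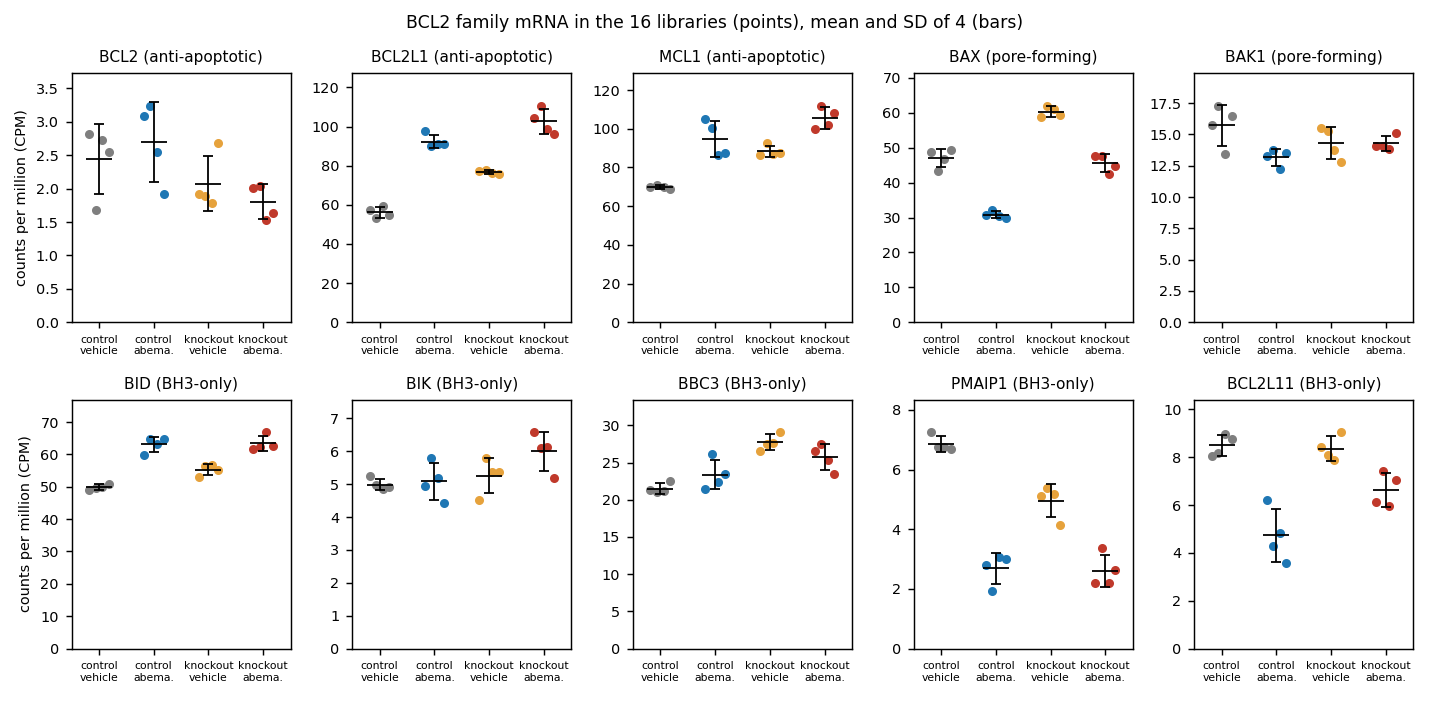
CPM (vertical axis, from 0) of each of the 10 members in the 4 groups (horizontal axis, abema. for abemaciclib). Points are libraries and bars the mean and SD of 4. BCL2L1 and MCL1 were lowest in control vehicle, BAX was lowest in control abemaciclib (30.0 to 32.2 CPM), and PMAIP1 was low in both abemaciclib groups.

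BCL2L1 (ENSG00000171552, GRCh38 chromosome 20, 31664452 to 31723989, minus strand) encodes BCL-XL and had the largest increase of the 10 members, that with the drug in control cells. Its libraries held 57.4, 53.4, 59.5 and 54.6 CPM in control vehicle, 97.5, 89.9, 91.2 and 90.9 in control abemaciclib, 77.5, 77.6, 76.5 and 75.7 in knockout vehicle, and 104, 111, 99.0 and 96.3 CPM in knockout abemaciclib. The ranges of the groups were apart from each other except those of the 2 abemaciclib groups, where the lowest knockout library lay under the highest control library. The drug raised it from 56.2 ± 2.76 to 92.4 ± 3.48 CPM in control cells (SD, n = 4, log2 difference 0.71, SE 0.0445, limma adjusted p = 2.8e-15). In knockout cells it raised it from 76.8 ± 0.906 to 103 ± 6.35 CPM (0.41, limma adjusted p = 2.8e-09). These changes lay above those of 98.0% and 97.6% of tested genes. Knockout cells had more BCL2L1 under vehicle (136.7% of control, 0.45, limma adjusted p = 8.0e-10). Under abemaciclib knockout cells held 111% of the control level (0.15, limma adjusted p = 0.0103). Rescaling ended that call (0.11, limma adjusted p = 0.0661), as did quantile normalization (0.10, limma adjusted p = 0.0950) and leaving out knockout abemaciclib replicate 2 (0.11, limma adjusted p = 0.0718).

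MCL1 (ENSG00000143384, GRCh38 chromosome 1, 150574551 to 150579738, minus strand), whose protein is short-lived and rebuilt from its mRNA, also rose in all 4 comparisons, by less than BCL2L1 in 3 of them and by about the same for the knockout under abemaciclib. It held 69.8, 71.0, 70.0 and 68.9 CPM in control vehicle, 105, 100.4, 86.6 and 87.4 in control abemaciclib, 86.2, 92.6, 86.8 and 87.6 in knockout vehicle, and 99.8, 112, 102 and 108 CPM in knockout abemaciclib. Control vehicle lay below all 12 other libraries, and control abemaciclib split into a high pair, replicates 1 and 2, and a low pair that reached the level of knockout vehicle. The drug raised MCL1 to 135.7% in control cells (0.43, SE 0.0498, limma adjusted p = 6.6e-09), and in the knockout to 119.5% (0.25, limma adjusted p = 1.0e-04). The knockout had 126% of control under vehicle (0.33, limma adjusted p = 2.1e-06). Under abemaciclib it had 111% (0.16, limma adjusted p = 0.0163). Rescaling ended that call (limma adjusted p = 0.0613), as did quantile normalization (0.109), a fit without the filter on low values (0.0973) or the trend (0.0707), and leaving out any of 4 libraries, control abemaciclib replicate 3 or 4 (0.0966 and 0.0843) or knockout abemaciclib replicate 2 or 4 (0.0780 and 0.0521). Reads of MCL1 were whole numbers in 12 of 16 libraries, and the gene overlaps ADAMTSL4-AS1 on the same strand in GENCODE 29.

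BCL2 itself (ENSG00000171791, GRCh38 chromosome 18, 63123346 to 63320128, minus strand), the gene that names the family and an estrogen receptor target in breast cells, was barely expressed, at 17.0 to 37.0 reads per library. Its values were 2.82, 1.69, 2.72 and 2.55 CPM in control vehicle, 3.08, 3.24, 2.55 and 1.93 in control abemaciclib, 1.92, 1.90, 1.79 and 2.68 in knockout vehicle, and 2.01, 2.04, 1.53 and 1.63 CPM in knockout abemaciclib. All 4 groups overlapped. The drug difference was 0.10 in control cells (95% interval -0.18 to 0.38, limma adjusted p = 0.564), and in the knockout -0.13 (-0.41 to 0.15, limma adjusted p = 0.491). Under abemaciclib BCL2 was lower in knockout cells (-0.39, SE 0.136, limma adjusted p = 0.0284). The call was lost without the filter on low values (limma adjusted p = 0.118), without control abemaciclib replicate 1 or 2 (-0.34 and -0.32, limma adjusted p = 0.0817 and 0.106) and without knockout abemaciclib replicate 3 or 4 (-0.34 and -0.36, limma adjusted p = 0.0868 and 0.0703). The SD of BCL2 was 14.4 to 22.02% of its mean, and the counting error of its reads alone 18.3 to 22.2%.

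BAX (ENSG00000087088, GRCh38 chromosome 19, 48954815 to 48961798, plus strand), which moves from the cytosol to the mitochondrion when active, fell with the drug and was higher without FAH. It held 48.7, 43.4, 46.8 and 49.4 CPM in control vehicle, 30.6, 32.2, 30.5 and 30.0 in control abemaciclib, 58.9, 62.0, 61.2 and 59.3 in knockout vehicle, and 47.7, 47.7, 42.5 and 44.9 CPM in knockout abemaciclib. Control abemaciclib was the lowest group and knockout vehicle the highest, each apart from every other group, while knockout abemaciclib overlapped control vehicle. The drug lowered BAX from 47.1 ± 2.67 to 30.8 ± 0.980 CPM in control cells (SD, n = 4, -0.59, SE 0.0501, limma adjusted p = 4.7e-12). In knockout cells it lowered BAX from 60.4 ± 1.48 to 45.7 ± 2.55 CPM (-0.40, limma adjusted p = 7.3e-08). The knockout had 128% of control under vehicle (0.35, limma adjusted p = 8.0e-07) and 148% under abemaciclib (0.55, limma adjusted p = 1.2e-10). All 4 calls held in every alternative setting run.

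BAK1 (ENSG00000030110, GRCh38 chromosome 6, 33572547 to 33580293, minus strand), the partner of BAX that sits in the outer membrane at rest, moved little. It held 15.7, 17.3, 13.4 and 16.4 CPM in control vehicle, 13.2, 13.7, 12.2 and 13.5 in control abemaciclib, 15.5, 15.2, 13.7 and 12.8 in knockout vehicle, and 14.1, 14.1, 13.8 and 15.1 CPM in knockout abemaciclib. Under abemaciclib the knockout libraries all lay above the control ones, by a difference that did not pass (0.11, limma adjusted p = 0.317). It was lower with the drug in control cells (-0.23, SE 0.0776, limma adjusted p = 0.0122), a call that rescaling ended (limma adjusted p = 0.0735), as did quantile normalization (0.0990) and leaving out control vehicle replicate 2 (0.0603). In knockout cells the drug difference was -0.0015, with an interval of -0.16 to 0.16. Reads of BAK1 were whole in only 2 of 16 libraries, and the gene overlaps GGNBP1 on the other strand, so its values are uncertain by an unknown amount.

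PMAIP1 (ENSG00000141682, GRCh38 chromosome 18, 59899948 to 59904306, plus strand), the NOXA gene, had the largest decrease of the 10 members, also with the drug in control cells. Control vehicle libraries held 7.26, 6.74, 6.75 and 6.69 CPM, control abemaciclib 2.80, 1.93, 3.06 and 2.99, knockout vehicle 5.10, 5.39, 5.19 and 4.16, and knockout abemaciclib 2.19, 3.36, 2.21 and 2.63 CPM. Both abemaciclib groups lay in 1 low range, and the vehicle groups were apart from them and from each other. The drug lowered it to 39.3% in control cells (-1.10, SE 0.119, limma adjusted p = 1.4e-09), and in the knockout to 52.4% (-0.73, limma adjusted p = 5.9e-06). Only 1.68% and 3.34% of tested genes fell further. Without FAH it was at 72.3% of control under vehicle (-0.40, limma adjusted p = 0.00707), while under abemaciclib the difference was -0.04 (95% interval -0.28 to 0.20, limma adjusted p = 0.855). These values rest on 22 to 72 reads per library, so the size of the drug changes is uncertain. Over the settings they ran from -1.36 to -0.63 in control cells and from -0.94 to -0.39 in knockout cells. The percentages are of mean CPM, whereas the log2 differences are of CPM + 1, which understates changes of low genes.

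BCL2L11 (ENSG00000153094, GRCh38 chromosome 2, 111119378 to 111168447, plus strand), the BIM gene, fell with the drug and did so most plainly in control cells. It held 8.07, 8.18, 8.97 and 8.77 CPM in control vehicle, 6.21, 4.29, 4.84 and 3.56 in control abemaciclib, 8.44, 8.08, 7.88 and 9.06 in knockout vehicle, and 6.13, 7.44, 5.95 and 7.04 CPM in knockout abemaciclib. The vehicle groups lay together above both abemaciclib groups, and control abemaciclib replicate 1 reached into the range of knockout abemaciclib. The drug lowered it to 55.6% in control cells (-0.75, SE 0.107, limma adjusted p = 4.3e-07). In knockout cells it was at 79.3% (-0.30, limma adjusted p = 0.0269), and rescaling ended this call (-0.21, limma adjusted p = 0.105), as did quantile normalization (-0.16, limma adjusted p = 0.238), dropping the filter on low values (limma adjusted p = 0.0950) and leaving out any of 4 libraries. These were knockout vehicle replicate 1 or 4 (limma adjusted p = 0.0536 and 0.0812) and knockout abemaciclib replicate 1 or 3 (0.0757 and 0.0896). Under abemaciclib knockout cells had 140.4% of control (0.43, limma adjusted p = 0.00223), and under vehicle the difference was -0.02 (95% interval -0.24 to 0.20, limma adjusted p = 0.902).

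BBC3 (ENSG00000105327, GRCh38 chromosome 19, 47220822 to 47232766, minus strand), the PUMA gene, was higher in knockout than in control cells under vehicle. It held 21.3, 21.0, 21.2 and 22.5 CPM in control vehicle, 21.5, 26.1, 22.4 and 23.5 in control abemaciclib, 26.5, 27.5, 27.7 and 29.1 in knockout vehicle, and 26.6, 27.5, 25.3 and 23.5 CPM in knockout abemaciclib. Every knockout vehicle library lay above every control library of either treatment. The rise under vehicle was to 129% of control (0.35, SE 0.0626, limma adjusted p = 3.2e-05). The drug difference was 0.11 in control cells (limma adjusted p = 0.135), which passed as higher after rescaling or quantile normalization (0.18 in both, limma adjusted p = 0.0156 and 0.0159), and -0.10 in knockout cells (limma adjusted p = 0.201). Under abemaciclib the knockout difference was 0.13 (limma adjusted p = 0.105), and it passed without control abemaciclib replicate 2 (0.19, limma adjusted p = 0.0283) or knockout abemaciclib replicate 4 (0.18, limma adjusted p = 0.0474).

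BID (ENSG00000015475, GRCh38 chromosome 22, 17734138 to 17774770, minus strand), whose protein is activated when caspase-8 cleaves it, rose with the drug. It held 49.0, 49.7, 49.996 and 51.0 CPM in control vehicle, 59.8, 64.7, 63.3 and 64.6 in control abemaciclib, 52.9, 56.4, 56.6 and 55.3 in knockout vehicle, and 61.7, 62.4, 66.9 and 62.6 CPM in knockout abemaciclib. Both abemaciclib groups lay together above both vehicle groups. The increase was 0.33 in control cells (SE 0.0434, limma adjusted p = 7.5e-08), and in the knockout 0.19 (limma adjusted p = 5.0e-04). Under vehicle the knockout was slightly higher (0.14, limma adjusted p = 0.00841), a call lost after rescaling (0.08, limma adjusted p = 0.180) and quantile normalization (0.08, limma adjusted p = 0.15).

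BIK (ENSG00000100290, GRCh38 chromosome 22, 43110748 to 43129712, plus strand) passed in none of the 5 comparisons. It held 5.24, 4.96, 4.84 and 4.90 CPM in control vehicle, 4.95, 5.78, 5.18 and 4.43 in control abemaciclib, 4.51, 5.79, 5.37 and 5.36 in knockout vehicle, and 6.58, 6.11, 6.12 and 5.18 CPM in knockout abemaciclib. All groups overlapped. The largest difference was 0.20, between knockout and control under abemaciclib (95% interval -0.0025 to 0.41, limma adjusted p = 0.132), and the drug difference in knockout cells passed after quantile normalization (0.30, limma adjusted p = 0.0169).

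**Figure D2:**
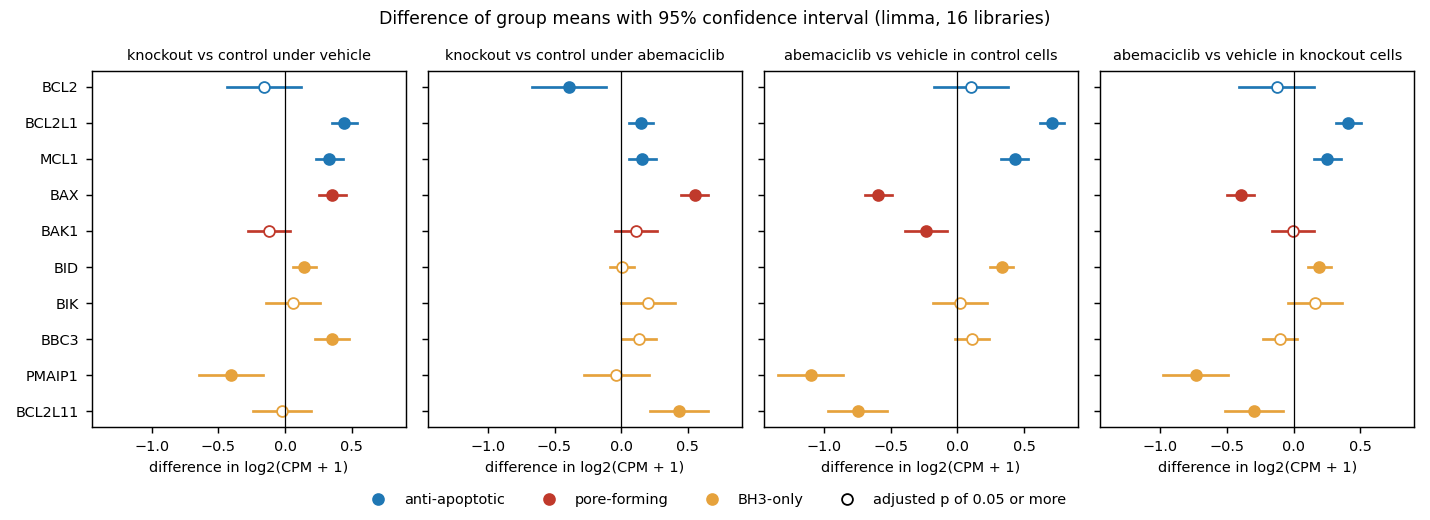
Difference in log2(CPM + 1) (horizontal axis) of each member (vertical axis) in the 4 group comparisons, with 95% confidence intervals. Filled points passed the test. BCL2L1 and MCL1 lie right of 0 in all 4 panels, BAX lies right of 0 for the knockout and left of 0 for the drug, and the intervals of BCL2 and PMAIP1 are wide.

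The drug changes of the members were set side by side in the 2 genotypes, which share no library. Of the 7 members called in control cells, BCL2L1, MCL1, BAX, BID, PMAIP1 and BCL2L11 were also called in knockout cells in the same direction, and BAK1 was not. The call of BCL2L11 in knockout cells was lost in 7 alternative settings. The interaction test asks whether the changes differ. It was called for BCL2L1 alone (-0.30, SE 0.0630, limma adjusted p = 0.00140), that is, the drug raised BCL2L1 by 0.71 in control and by 0.41 in knockout cells. This call held in every setting run. Across all genes 10.8% were called, 4.68% higher and 6.16% lower. The other differences were 0.45 for BCL2L11 (limma adjusted p = 0.0508), 0.37 for PMAIP1 (0.175), 0.23 for BAK1 (0.193), 0.20 for BAX (0.0671), 0.14 for BIK (0.609), -0.14 for BID (0.161), -0.18 for MCL1 (0.110), -0.22 for BBC3 (0.119) and -0.23 for BCL2 (0.522). At an unadjusted p under 0.05 there were 8 of 10 members, where 23.4% of all genes had such a p.

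Whether BCL2L11 passed in the interaction depended on the setting. It passed as higher with a pseudocount of 0.1 (0.53, limma adjusted p = 0.0468), with a filter of 5 CPM (0.45, limma adjusted p = 0.0367), with voom (0.53, limma adjusted p = 0.0360), after rescaling (0.47, limma adjusted p = 0.0315) and after quantile normalization (0.52, limma adjusted p = 0.0176). It also passed without control abemaciclib replicate 1 (0.57, limma adjusted p = 0.00593) or knockout abemaciclib replicate 3 (0.50, limma adjusted p = 0.0422). BAX passed after rescaling (0.22, limma adjusted p = 0.0416) and without control vehicle replicate 2 or knockout abemaciclib replicate 3 (0.24 and 0.23, limma adjusted p = 0.0301 and 0.0358). MCL1 passed as lower without control abemaciclib replicate 3 or 4 (-0.22 and -0.21, limma adjusted p = 0.0390 and 0.0411).

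**Figure D3:**
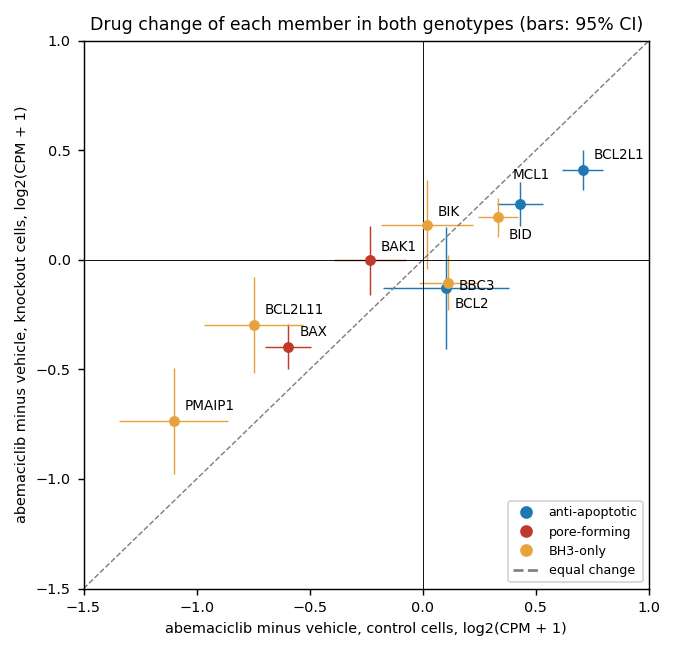
Change with abemaciclib in control cells (horizontal axis) against knockout cells (vertical axis), in log2(CPM + 1), for each member, with 95% confidence intervals. BCL2L1 lies below the dashed line of equal change, at 0.71 and 0.41, and is the 1 member whose interaction passed the test.

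Anti- and pro-apoptotic members were also compared within each library, as the log2 ratio of the CPM of a pair, which is described without a test. MCL1 over PMAIP1, a guardian and the BH3-only gene whose product binds it, had the widest spread between groups. The mean ratio was 3.35 ± 0.0576 in control vehicle (SD, n = 4), 5.16 ± 0.407 in control abemaciclib, 4.16 ± 0.158 in knockout vehicle and 5.36 ± 0.218 in knockout abemaciclib. The abemaciclib groups were therefore 3.498 and 4.04 times the control vehicle ratio, and knockout vehicle 1.75 times. The 4 knockout vehicle libraries (4.06 to 4.40) lay between control vehicle (3.27 to 3.40) and the abemaciclib libraries (4.82 to 5.70). BCL2L1 over BAK1 was 1.95, 1.498 and 2.0 times its control vehicle value in control abemaciclib, knockout vehicle and knockout abemaciclib, with the uncertainty of BAK1.

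The ratios that hold BCL2 did not follow this order. BCL2 rests on 17 to 37 reads per library, so these ratios carry its counting error. BCL2 itself was called with the drug in neither genotype. BCL2 over BAX was 1.69 times the control vehicle value in control abemaciclib, but 0.665 times in knockout vehicle and 0.769 times in knockout abemaciclib. Both knockout groups (-5.09 to -4.47) lay below all control abemaciclib libraries (-3.96 to -3.31). BCL2 over BCL2L11 was 2.02 times the control vehicle value in control abemaciclib and 0.867 and 0.959 times in the knockout groups. The control abemaciclib libraries (-1.01 to -0.41) lay above all 12 others. Within knockout cells the mean of the drug group was also the higher one for both pairs, by less (-4.67 against -4.88 for BAX and -1.89 against -2.03 for BCL2L11), and the libraries overlapped.

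**Figure D4:**
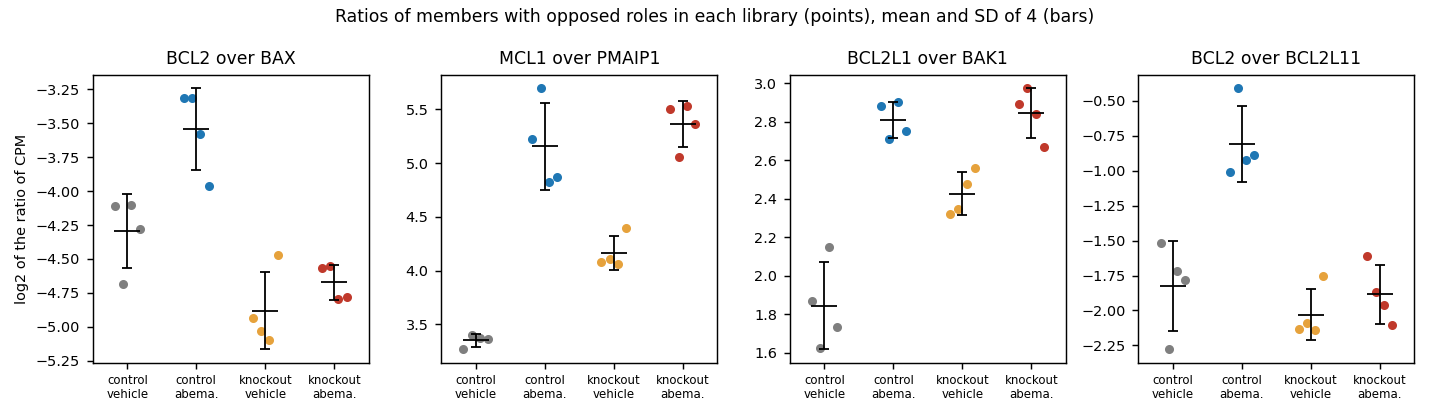
Log2 of the ratio of CPM (vertical axis, each panel on its own scale) of 4 pairs of members with opposed roles, by group. Points are libraries and bars the mean and SD of 4. MCL1 over PMAIP1 is high in both abemaciclib groups, whereas BCL2 over BAX and BCL2 over BCL2L11 are highest in control abemaciclib.

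Levels of different members were compared as CPM per kilobase of merged exons of GENCODE 29, a description that assumes reads spread over the whole transcript. In control vehicle BAX (18.2), BCL2L1 (17.0) and MCL1 (15.999) led, and BAX overlapped BCL2L1 and BCL2L1 overlapped MCL1. BID (11.2) followed, then BAK1 (7.10) and BBC3 (6.76), which overlapped, BIK (5.23), PMAIP1 (3.07), BCL2L11 (1.28) and BCL2 (0.208). In control abemaciclib BCL2L1 (27.9) and MCL1 (21.7) led without overlap and BAX (11.9) came after BID (14.2). In knockout vehicle BAX (23.3) and BCL2L1 (23.2) overlapped at the top, and in knockout abemaciclib BAX (17.7) came after BCL2L1 (31.0) and MCL1 (24.1). BCL2 was last in all 4 groups. Its merged exons are long, 11765 bases, which lowers its value per length.

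Promoter sequences are given for the 3 members whose group means spread most, PMAIP1 (range of 1.14 on the log2 scale), BAX (0.95) and BCL2L1 (0.86). Each is the 250 bases before the RefSeq start site, 5′ to 3′ on the strand of the gene, in the RefSeq table of GRCh38.p14, and capitals mark matches to the motifs searched. The windows are chr18:59899746-59899995 on the plus strand for PMAIP1, chr19:48954625-48954874 on the plus strand for BAX, and chr20:31723964-31724213 on the minus strand for the more upstream of the 2 starts of BCL2L1.
BAX: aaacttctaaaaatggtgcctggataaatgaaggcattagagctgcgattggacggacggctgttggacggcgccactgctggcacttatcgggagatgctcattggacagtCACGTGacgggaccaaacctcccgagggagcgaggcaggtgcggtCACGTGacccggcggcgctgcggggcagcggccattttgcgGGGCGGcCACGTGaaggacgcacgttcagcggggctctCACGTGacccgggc
PMAIP1: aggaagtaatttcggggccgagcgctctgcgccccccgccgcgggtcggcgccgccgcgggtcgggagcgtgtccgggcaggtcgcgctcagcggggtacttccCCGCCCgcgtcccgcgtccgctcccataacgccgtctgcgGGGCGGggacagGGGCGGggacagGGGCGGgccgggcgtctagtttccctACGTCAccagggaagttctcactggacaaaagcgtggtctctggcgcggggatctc
BCL2L1: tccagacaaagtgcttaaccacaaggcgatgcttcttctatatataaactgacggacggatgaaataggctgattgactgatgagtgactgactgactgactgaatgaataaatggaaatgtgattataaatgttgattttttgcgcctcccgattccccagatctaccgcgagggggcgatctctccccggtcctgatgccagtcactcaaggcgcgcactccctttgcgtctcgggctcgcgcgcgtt

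The motifs reported, searched on both strands, were the E-box CACGTG, the GC box GGGCGG, the cyclic AMP response core TGACGT, the amino acid response element TGATGNAA, an NF-kappaB site, an interferon response element and an E2F site TTTGGCGC. The BAX window held 4 E-boxes, the palindrome bound by MYC and related factors, and 1 GC box. Among all 35116 promoter windows 6.34% held an E-box at all, and 5 (0.0142%) held 4 or more, the BAX window among them. The cut of 4 is the number found in the BAX window itself, so this share is a description and not a test. The PMAIP1 window held 4 GC boxes, as did 7.63% of all windows with 4 or more, and 1 cyclic AMP response core, found in 7.10% of windows. The BCL2L1 window held none of them. Windows were found for 8 of 10 members (BIK and MCL1 had none), 13 windows in all. An E-box was also in the window of BBC3 and in 2 of the 5 of BID, which overlap and hold the same E-box. No NF-kappaB, interferon, amino acid response or E2F match was found. Such matches were in 1.73%, 3.02%, 3.14% and 0.55% of all windows, so their absence from 13 windows says little. A match is a string of letters and not a bound site.

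The rest of the family moved in several directions. Of 14 other BCL2 family genes 10 were tested, since BCL2A1, BCL2L10, BCL2L14 and BCL2L15 were below the filter. In knockout cells under vehicle 4 rose and 1 fell (median difference 0.06, against 0.06 over all tested genes), and under abemaciclib 2 rose and 1 fell (-0.05, all genes 0.04). With the drug 2 rose and 3 fell in control cells (-0.03, all genes -0.05), and 0 rose and 5 fell in knockout cells (-0.16, all genes -0.07). Shares of all genes higher and lower were 24.6% and 13.1%, 18.6% and 11.3%, 19.6% and 31.1%, and 11% and 27.4%, in that order. After rescaling the counts higher and lower were 3 and 1, 1 and 4, 4 and 3, and 1 and 4, in the same order of comparisons. Rescaled, all genes gave 2818 and 2979, 2178 and 2376, 4182 and 3998, and 3227 and 2847, also the background of the lists below. HRK, a BH3-only gene best known from neurons, rose from 1.217 ± 0.465 to 2.52 ± 0.513 CPM without FAH under vehicle (0.68, limma adjusted p = 1.8e-04) and to 2.99 ± 0.280 CPM with the drug in control cells (0.87, limma adjusted p = 2.5e-06). So near the filter the size of these 2 changes of HRK is uncertain. Over the settings they ran from 0.28 to 1.07 and from 0.36 to 1.35. For HRK the knockout difference under abemaciclib was 0.14 (limma adjusted p = 0.490) and the drug difference in knockout cells 0.33 (limma adjusted p = 0.0570), neither called. BAD, whose product is held inactive by phosphorylation, rose from 93.3 ± 1.321 to 108 ± 3.29 CPM without FAH under vehicle (0.21, limma adjusted p = 2.6e-05). BCL2L12 fell with the drug in control (-0.53) and knockout cells (-0.46). The counts include BCL2L2-PABPN1, a row named for BCL2L2 and PABPN1 together, whose reads were whole in only 3 of 16 libraries. Its calls are therefore uncertain, higher in the knockout under abemaciclib (0.14) and lower with the drug in control (-0.32) and knockout cells (-0.23). BCL2L2 itself was not called for the knockout under abemaciclib (-0.25, limma adjusted p = 0.0717) or the drug in control cells (0.18, limma adjusted p = 0.159). BMF, a BH3-only gene tied to the cytoskeleton, fell with the drug in knockout cells from 5.56 ± 1.07 to 3.56 ± 0.558 CPM (-0.52, limma adjusted p = 0.00304). No gene of this list was called in the interaction by limma at an adjusted p under 0.05.

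Downstream of the mitochondrial step, 20 genes of the apoptosome, the caspases and their inhibitors were tested. Of these 5 rose and 2 fell in knockout cells under vehicle (median 0.08) and 5 rose and 2 fell under abemaciclib (0.06). With the drug 2 rose and 6 fell in control (-0.07) and 0 rose and 6 fell in knockout cells (-0.09). Shares of all genes higher and lower were 24.6% and 13.1%, 18.6% and 11.3%, 19.6% and 31.1%, and 11% and 27.4%, in that order. The medians of all genes were 0.06, 0.04, -0.05 and -0.07. Rescaled, the counts higher and lower were 2 and 2, 3 and 3, 6 and 6, and 1 and 5. The ubiquitin ligase BIRC3, an NF-kappaB target, rose from 5.61 ± 0.378 to 13.3 ± 0.618 CPM without FAH (1.12, limma adjusted p = 9.2e-12) and was also higher under abemaciclib (0.88). Survivin, BIRC5, which serves mitosis as well as caspase inhibition, fell from 165 ± 2.33 to 22.1 ± 0.516 CPM with the drug in control cells (-2.84) and from 121 ± 2.11 to 10.8 ± 0.772 CPM in knockout cells (-3.37). Cytochrome c, CYCS, fell with the drug in control (-0.56) and knockout cells (-0.27), as did the initiator CASP2 (-0.67 and -0.65). The interaction was called for BIRC5 (-0.54, limma adjusted p = 6.3e-07), CYCS (0.29, limma adjusted p = 1.2e-05) and BIRC7 (-0.69, limma adjusted p = 0.0497), the last a call lost in 18 of 24 alternative settings (limma adjusted p of 0.0234 to 0.262 over all of them). Reads of BIRC5 and CYCS were whole in only 8 and 2 of 16 libraries, so their values are uncertain.

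The death receptor route, which reaches the mitochondrion through BID, had 12 of 14 genes tested (TNFRSF10D and CASP10 were below the filter). In knockout cells 4 rose and 1 fell under each treatment (medians 0.15 and 0.10), and with the drug 2 rose and 4 fell in control (0.03) and 1 rose and 5 fell in knockout cells (-0.08). Shares of all genes higher and lower were 24.6% and 13.1%, 18.6% and 11.3%, 19.6% and 31.1%, and 11% and 27.4%, in that order. The medians of all genes were 0.06, 0.04, -0.05 and -0.07. Rescaled, the counts higher and lower were 4 and 2, 4 and 1, 4 and 4, and 1 and 3. The ligand TRAIL, TNFSF10, rose from 19.2 ± 1.02 to 31.2 ± 1.01 CPM without FAH under vehicle (0.67, limma adjusted p = 2.3e-11) and to 27.5 ± 1.07 CPM with the drug in control cells (0.50). Its interaction was called (-0.57, limma adjusted p = 6.3e-06). The TRAIL receptor TNFRSF10B fell with the drug in control cells (-0.52) and was higher in knockout than in control cells under abemaciclib (0.30). The receptor FAS fell without FAH (-0.36 under vehicle, -0.29 under abemaciclib) and with the drug (-0.46 in control, -0.39 in knockout cells), from reads whole in only 4 of 16 libraries.

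Among 10 outer membrane partners 3 rose and 1 fell in knockout cells under vehicle (median 0.05) and 2 rose and 2 fell under abemaciclib (0.06). With the drug 1 rose and 4 fell in control (-0.10) and 2 rose and 4 fell in knockout cells (-0.06). Shares of all genes higher and lower were 24.6% and 13.1%, 18.6% and 11.3%, 19.6% and 31.1%, and 11% and 27.4%, in that order. The medians of all genes were 0.06, 0.04, -0.05 and -0.07. VDAC3, a channel of the outer membrane, fell with the drug from 142 ± 2.96 to 101 ± 4.39 CPM in control cells (-0.48) and from 147 ± 6.42 to 107 ± 5.38 CPM in knockout cells (-0.45). Rescaled, the counts higher and lower were 0 and 2, 1 and 3, 4 and 3, and 3 and 1.

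Of 21 genes of MCL1 turnover and of the regulators of BH3-only genes 19 were tested. In knockout cells 6 rose and 2 fell under vehicle (median 0.09) and 5 rose and 4 fell under abemaciclib (0.03). With the drug 7 rose and 8 fell in control (-0.06) and 3 rose and 5 fell in knockout cells (-0.04). Shares of all genes higher and lower were 24.6% and 13.1%, 18.6% and 11.3%, 19.6% and 31.1%, and 11% and 27.4%, in that order. The medians of all genes were 0.06, 0.04, -0.05 and -0.07. Rescaled, the counts higher and lower were 4 and 4, 5 and 4, 7 and 8, and 6 and 5. ATF4, a stress transcription factor with PMAIP1 among its known targets, fell from 252 ± 13.7 to 166 ± 6.66 CPM without FAH under vehicle (-0.60, limma adjusted p = 2.2e-14). E2F1 fell with the drug from 58.0 ± 2.98 to 27.2 ± 2.51 CPM in control cells (-1.07) and from 60.7 ± 0.813 to 14.8 ± 1.86 CPM in knockout cells (-1.97). STAT3, a known activator of BCL2L1 and MCL1, was higher without FAH under vehicle (0.41) and abemaciclib (0.43). ATF4 and STAT3 had whole reads in only 3 and 2 of 16 libraries.

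**Figure D5:**
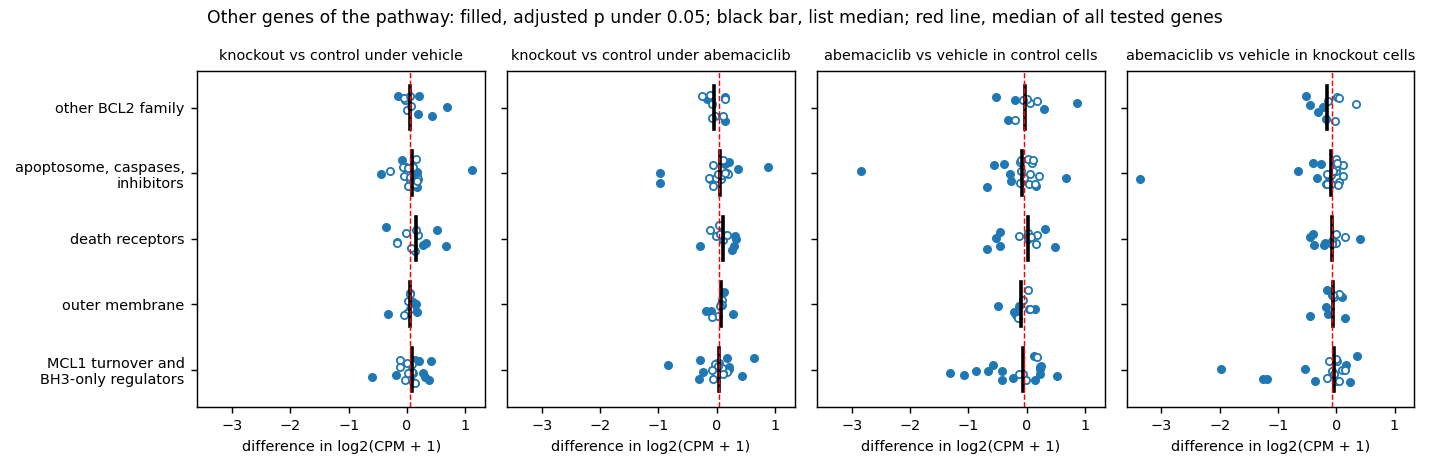
Difference in log2(CPM + 1) (horizontal axis) of every tested gene of 5 lists (vertical axis) in the 4 group comparisons. Filled points passed the test, black bars are list medians and the dashed line is the median of all 16218 tested genes. List medians lie near the dashed line, and the far left points of the drug panels, at -2.84 and -3.37, are BIRC5.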

How the data were processed

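RNA of 16 T47D libraries was sequenced by a commercial service after reverse transcription and tagmentation, per the labels' protocols. Reads were aligned with STAR 2.7.11 to GRCh38, handled with SAMtools 1.22.1 and counted with featureCounts of Subread 2.1.1, per the submitters' processing notes. No source used here names the gene annotation, strand setting or rule for shared reads. The authors deposited CPM, gene counts scaled so that each library sums to 1000000. The commonest value above 0 gave the worth of 1 read and so the depth. By it 70.2 to 71.8% of values above 0 were whole reads within 0.02 reads, too few for a count test, and a gene with whole reads in 8 or fewer libraries was called uncertain. Without strand, overlapping genes on opposite strands cannot be told apart. Reads not counted by molecule are not independent, so counting errors are lower bounds.

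Spike-in rows (92) were left out. CPM were taken to log2(CPM + 1), which understates changes of low genes, and limma 3.58.1 (R 4.3.3) was run on every gene that reached 1 CPM in 4 or more libraries. All 16 libraries entered 1 fit of 4 group means, with trended empirical Bayes. Tests were two-sided, and p-values were adjusted by Benjamini-Hochberg across 16218 genes within each of 5 comparisons. The code was tested on simulated data. The members, lists and tests were chosen with earlier results of these data known. Named were all members, FAH, and of each list up to 4 called genes per comparison with the largest changes, of which the text gives a part, and the 3 protein-coding genes most correlated with each of 3 members. Alternatives were 2 pseudocounts, 2 filters, 2 scalings, no trend, voom on CPM times depth, fits of only the groups compared, a replicate block and each library left out. Promoter sequences are from RefSeq (GRCh38.p14), coordinates and exon lengths from GENCODE 29. A few results of the lists and motifs are not reported here.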

Additional observations from a re-analysis of the deposited data

Results flagged for a closer look

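The change of BCL2L1 with the drug differed between genotypes by the interaction test (-0.30 on the log2 scale, limma adjusted p = 0.00140). Among the 40 sets of 4 libraries (10 members in 4 groups), 5 held a library far from the other 3 by Dixon's criterion, and chance marks about 1 in 20 such sets. These were BCL2 in knockout vehicle replicate 4 (2.68 CPM), BCL2L1 in control abemaciclib replicate 1 (97.5 CPM), BID in knockout abemaciclib replicate 3 (66.9 CPM), BBC3 in control vehicle replicate 4 (22.5 CPM) and PMAIP1 in control vehicle replicate 1 (7.26 CPM). They fall in 5 different libraries.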

How the results depend on the processing

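Of 50 results for members (10 members, 5 comparisons), 37 had the same call in every setting run, 13 did not, and no called value changed sign. The count of members called lower in the knockout under abemaciclib went from 1 to 0 without the filter on low values and with a filter of 5 CPM, which leaves BCL2 untested, and that of members called higher from 4 to 2 after median-of-ratios rescaling or quantile normalization. For the knockout under vehicle members called lower went from 1 to 2 after quantile normalization. In the interaction members called higher went from 0 to 1 with a pseudocount of 0.1, a filter of 5 CPM, voom or quantile normalization, and to 2 after rescaling. With a library left out, the knockout under abemaciclib had 2 to 5 members higher and 0 to 1 lower, and the interaction 0 to 2 higher and 1 to 2 lower. Over all genes, the drug in knockout cells gave 3227 higher and 2847 lower after rescaling and 3578 and 2715 after quantile normalization, against 1780 and 4444. The interaction gave 494 higher and 578 lower without the filter, and 491 higher without the trend, against 759 and 999. The cause was not tested. Same-numbered libraries did not deviate together (correlations of -0.0367 to 0.0603, 0 of 24 pairs above 0.1). No large effect shared by number was therefore seen, but this cannot tell whether such libraries were handled together. Only 4 of 16 libraries correlated best with their own number. With the replicate block, 742 genes were higher and 1003 lower in the interaction, and 4002 and 2121 in the knockout under vehicle, and no member's call changed. Depth limits BCL2, PMAIP1, BIK and BCL2L11, with at most 101 reads per library.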

Other observations

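The genes most like a member over the 16 libraries were sought among 12668 other protein-coding genes, by the correlation of log2(CPM + 1), for the 3 members whose group means spread most. Since 16 libraries fall in 4 groups, such correlations largely restate the group means and carry no test. For BAX they were PRMT5, an arginine methyltransferase (r = 0.979), PIR, an iron-binding nuclear protein (0.974), and EI24 (0.973). PIR went from 15.6 CPM in control vehicle to 6.78 in control abemaciclib, 22.3 in knockout vehicle and 12.8 in knockout abemaciclib. For PMAIP1 they were TMEM14B (0.9745), BLOC1S1 and CYC1 (both 0.972), the last a subunit of respiratory complex III at 492, 346, 437 and 338 CPM in the same order. For BCL2L1 they were the peroxidase PXDN and the protocadherins PCDHA8 and PCDHAC2 (all 0.984). Both protocadherins were low and nearly equal in every group. In the same order PCDHA8 held 2.14, 3.87, 3.00 and 4.28 CPM, and PCDHAC2 2.25, 3.97, 3.07 and 4.35 CPM. Whether their rows count the same reads was not tested, so they are not taken as separate findings. PXDN went from 34.9 to 69.6 CPM with the drug in control cells and from 57.2 to 79.9 CPM in knockout cells.

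The spread of PMAIP1 between group means was larger than that of 95.9% of tested genes, that of BAX than 93.5% and that of BCL2L1 than 91.7%. BIK and BAK1 lay at 25.6% and 27.8%.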
